A study of Mus musculus with 6 samples.

Results

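Glycolysis turns glucose into pyruvate in the cytosol, and the pyruvate is either reduced to lactate and exported or carried into mitochondria and oxidised by the pyruvate dehydrogenase complex. Flux through the pathway is set mainly at glucose uptake, hexokinase, phosphofructokinase and pyruvate kinase, and pyruvate dehydrogenase kinases close the mitochondrial branch. Macrophages are known to raise glycolysis when they are activated by microbial products or kept at low oxygen, in part through the transcription factor HIF-1.

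The transcripts described here are 33 genes of this pathway, chosen as a list of symbols for transport, glycolysis, lactate and pyruvate use and looked up in a table of 24054 mouse genes. The list was chosen with earlier results of these data known. Its shares beside those of all tested genes are therefore descriptions and not a test. All 33 had a row, and all 33 were among the 11400 genes that passed the filter on low counts. The cells were macrophages grown from the bone marrow of C57BL/6 mice labelled WT, over 7 days in medium conditioned by L929 cells. One group was then given oxidised low-density lipoprotein (oxLDL) at 50 µg/ml for 24 hours. oxLDL is a modified lipoprotein that loads macrophages with cholesterol. The untreated group was cultured in the same way without oxLDL. Each group held 3 samples, numbered 1, 2 and 3 in the titles, and both groups carry the word mix there, which the labels leave unexplained. Separate cultures or animals behind these samples are not stated, so a p-value here covers the spread among the samples, some of which may be technical. The samples held between 13546572 and 15559310 expected counts.

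The 14 measured macrophage markers summed to between 13396 and 19936 CPM (reads of a gene scaled to a fixed library size, with TMM factors) in oxLDL samples and between 14858 and 37647 CPM in untreated samples. Lyz2, Emr1 and Lgals3 were the highest by mean CPM, and Cd163 was at 4.64 CPM or less. Of these 14, Fcgr1, Spi1 and Aif1 fell in edgeR with the sample number as a block (adjusted p = 0.0287, 0.0302 and 0.0393) and 0 rose. Among all tested genes 3.98% fell and 1.91% rose in that fit. Without the block the edgeR adjusted p values were 0.0718, 0.214 and 0.125. Fcgr1, Spi1 and Aif1 lay lower in every oxLDL sample than in any untreated sample, as did Emr1 and Itgam (10.6% of all tested genes). Cd68 and Lgals3 lay higher in every oxLDL sample (10.5% of all). The markers of neutrophils, dendritic cells, fibroblasts, red cell precursors, and T, NK and B cells each summed to at most 40.3 CPM in any sample. Of these, the B cell marker Cd79b fell with the block (edgeR adjusted p = 0.0362, and 0.42 without it). The endothelial list summed to 199 to 246 CPM with oxLDL and 54.9 to 208 CPM without it, mostly Vwf and Kdr. Of the same list, Tek and Emcn were at 0 in all samples. Vwf was higher in every oxLDL sample than in any untreated sample. Pecam1 lay the other way, at 2.76, 0.267 and 1.37 CPM with oxLDL and 17.0, 14.8 and 6.69 CPM without. The list for mast cells summed to 23.3 to 36.4 CPM with oxLDL and 2.93 to 22.4 CPM without it, nearly all of it Kit, and Cma1 was at 0. The part of these marker genes in the results below was not tested. In bulk RNA, fewer cells of a type and less RNA per cell cannot be told apart.

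The samples numbered 3 stood apart from those numbered 1 and 2 in both groups, and this was marked among the glycolytic genes. On the log2 CPM scale, oxLDL sample 3 lay above the mean of oxLDL samples 1 and 2 by a median of 0.77 over the 33 genes, and untreated sample 3 lay above its own group's other samples by a median of 0.86. Over all tested genes these medians were -0.004 with oxLDL and 0.006 without it. The difference was more than 1 on the log2 scale for 13 of the 33 genes in the oxLDL group (6.75% of all tested genes) and for 13 in the untreated group (10.9% of all). Among the highest were the glucose transporter Slc2a1 (1.98 with oxLDL, 3.05 without) and the lactate carrier Slc16a3 (1.78 with oxLDL, 2.67 without), while Ldhb, the subunit of lactate dehydrogenase typical of heart, was lower in sample 3 (-2.16 with oxLDL, -1.56 without). Txnip, which encodes an inhibitor of glucose uptake and was picked here after its values were seen, measured 596, 334 and 4.49 CPM in oxLDL samples 1, 2 and 3 and 849.5, 946 and 11.5 CPM in the untreated samples. This difference between numbers was not tested. The comparisons below were made with the samples matched by number and also unmatched.

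**Figure D1:**
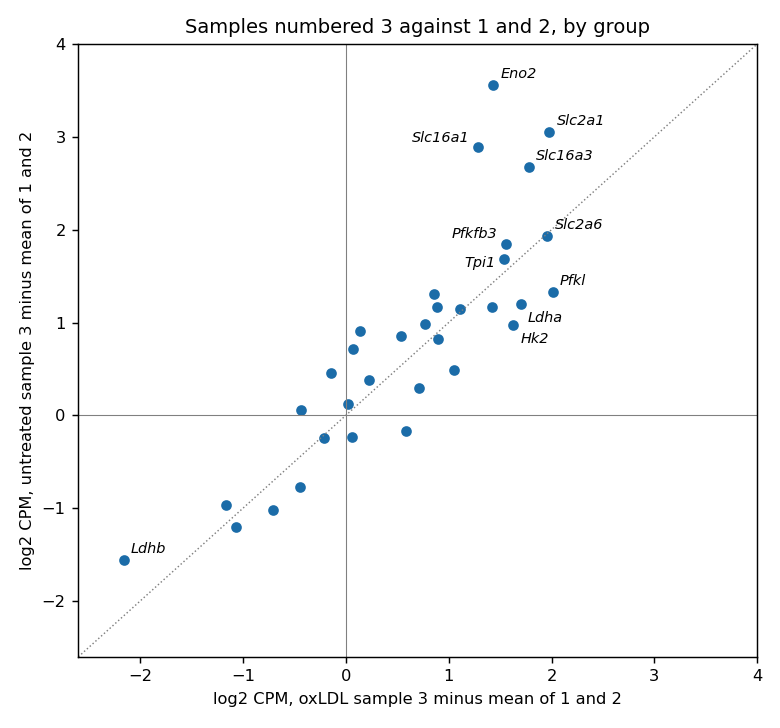
Each of the 33 points is a gene, placed by the difference in log2 CPM between sample 3 and the mean of samples 1 and 2, in the oxLDL group on the horizontal axis and in the untreated group on the vertical axis. The dotted line marks equal differences. Most points lie at upper right, with Eno2 at 1.43 and 3.56 and Slc2a1 at 1.98 and 3.05, and Ldhb lies at lower left.

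The comparison of oxLDL-treated with untreated cells asked which transcripts differ after exposure to the lipoprotein. Most genes of the pathway measured higher with oxLDL in every numbered pair, while edgeR's fits on all 6 samples with the filter on low counts called 2 falls with matching by number and nothing without it. The log2 ratio of oxLDL over untreated was above 0 in all 3 pairs for 23 of the 33 genes, a pattern seen in 26.4% of all tested genes. It was below 0 in all 3 pairs for 3 genes, against 27% of all tested genes, and these were the hexose transporter Slc2a6 and the phosphofructokinase regulators Pfkfb3 and Pfkfb4. The median log2 ratio over the 33 genes was 0.20 in pair 1, 0.70 in pair 2 and 0.38 in pair 3, beside 0.012, 0.014 and -0.015 over all tested genes. The fitted log2 fold change was above 0 for 28 of the 33 genes without matching (50.6% of all tested genes) and for 27 with it (51.4% of all).

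Without matching by number, 0 of 33 genes passed an adjusted p of 0.05 in edgeR's quasi-likelihood test, as did 0% of all tested genes. At an unadjusted p below 0.05, 5 were higher (6.3% of all tested genes) and 0 were lower (8.39% of all). Among other tools without matching, DESeq2 called 1 gene, Mpc1, higher (2.82% of all tested genes) and 0 lower (4.84% of all), against 7.66% of all genes in either direction. limma-voom called 0 of the 33 (0.0877% of all tested genes). With the number as a block, edgeR called 0 of 33 genes higher (1.91% of all tested genes; without the filter on low counts 1, Mpc1) and 2 lower (3.98% of all), Slc2a6 and Pfkfb3. That share, 6.06%, was near the 5.89% called in either direction among all genes, so the count of calls is no result about these genes as a group. An unadjusted p below 0.05 was reached by 19 genes in the higher direction (13.3% of all tested genes) and 3 in the lower direction (15.7% of all). DESeq2 with the block called 11 higher (6.17% of all tested genes) and 3 lower (10.1% of all). Here "fell" and "rose" of a gene refer to edgeR's fit with the block.

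The calls depended on which samples entered. In edgeR with the block, 0 of the 33 genes passed when pair 1 or pair 2 was left out, as did 0% of all genes in either case. At an unadjusted p below 0.05 there were 9 higher (5.26% of all tested genes) and 3 lower (8.77% of all) without pair 1. Without pair 2 there were 3 higher (5.7% of all tested genes) and 3 lower (8.39% of all) at that level. With pair 3 left out, 14 were called higher (13.9% of all tested genes) and 3 lower (15.7% of all), with 29.7% of all genes called in either direction. The 14 were Slc2a1, Hk1, Pfkp, Aldoa, Tpi1, Pgk1, Pgam1, Eno2, Pkm, Slc16a1, Slc16a3, Pdhb, Dlat and Mpc1, and the 3 were Slc2a6, Pfkfb3 and Pfkfb4. Unmatched and without untreated sample 3, edgeR called Pdhb and Mpc1 higher (2.53% of all tested genes) and 0 lower (3.81% of all). At an unadjusted p below 0.05, 13 were higher (15.1% of all tested genes) and 1 was lower (14.8% of all) in that fit. Unmatched and without oxLDL sample 3, edgeR called 0 higher (0.0343% of all tested genes) and 0 lower (0.232% of all). There, 2 were higher (6.71% of all tested genes) and 1 was lower (8.21% of all) at an unadjusted p below 0.05.

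**Figure D2:**
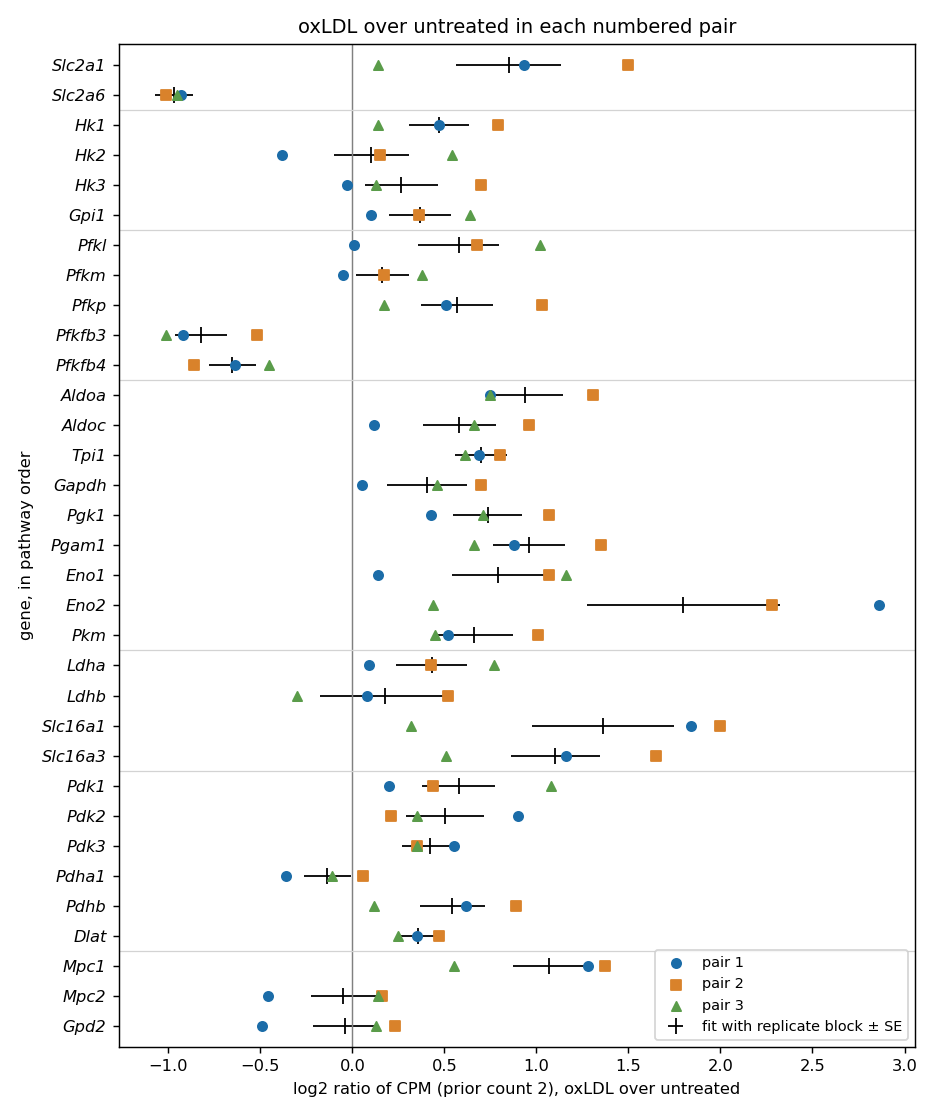
Rows are the 33 genes in pathway order, with grey lines between functional groups, and the horizontal axis is the log2 ratio of CPM in oxLDL over untreated samples. Coloured symbols are the ratios in pairs 1, 2 and 3, and black marks are the log2 fold change ± SE of edgeR's fit with the replicate block. All 9 genes from Aldoa to Pkm lie right of 0 in every pair, while Slc2a6, Pfkfb3 and Pfkfb4 lie left of it.

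**Figure D3:**
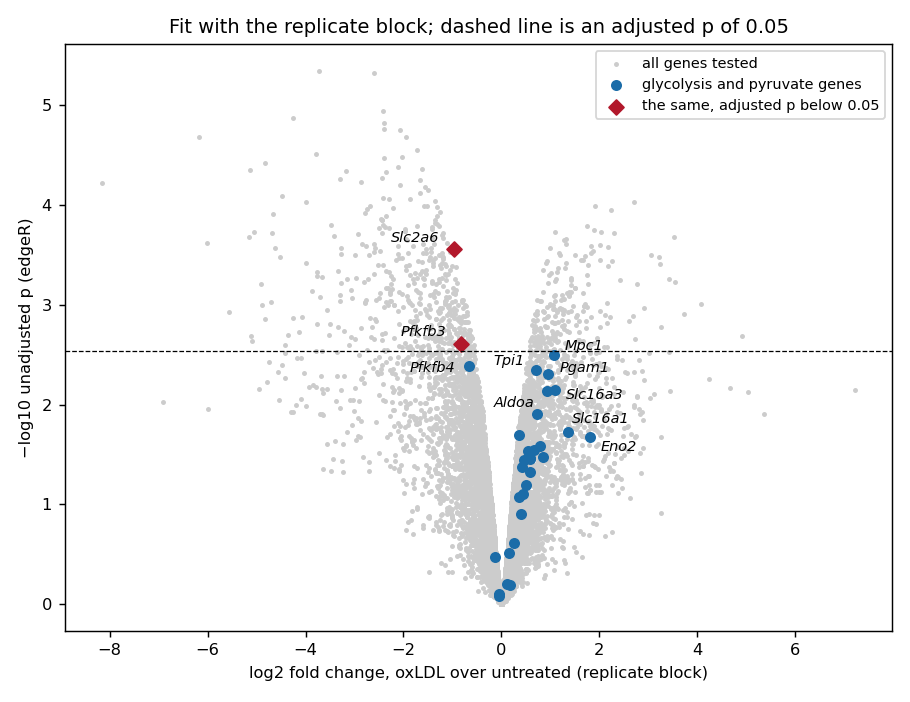
Each point is 1 of the 11400 tested genes in edgeR's fit with the replicate block, by its log2 fold change (oxLDL over untreated) and the −log10 of its unadjusted p. Slc2a6 and Pfkfb3 (red) are the members above the dashed line of an adjusted p of 0.05, and Mpc1 is the highest point on the right side among the other members (blue).

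The glucose transporters had pair ratios of opposite sign. Slc2a6 encodes GLUT6, a hexose transporter of intracellular membranes that inflammatory macrophages express. It measured 15.5, 14.6 and 58.8 CPM in oxLDL samples 1, 2 and 3, against 29.8, 29.4 and 114 CPM in untreated samples 1, 2 and 3. Each oxLDL sample held about the same fraction of its numbered partner, although the groups overlapped because of sample 3. Slc2a6 fell with the block, with a fitted log2 fold change of -0.97 ± 0.10 (SE, n = 3 per group, edgeR adjusted p = 0.0286), to 0.511 of the untreated level. Unmatched, the value was -0.96 ± 0.80 (edgeR adjusted p = 0.624), reaching -1.95 when oxLDL sample 3 was dropped and 0.00469 when untreated sample 3 was. Slc2a1 encodes GLUT1, the main glucose importer of activated macrophages. It measured 50.9, 67.8 and 232 CPM with oxLDL and 26.7, 23.9 and 211 CPM without, and the groups overlapped. Pairs 1, 2 and 3 had log2 ratios of 0.93, 1.5 and 0.14. Its log2 fold change was 0.85 ± 0.285 with the block (edgeR adjusted p = 0.139, DESeq2 adjusted p = 0.0387) and 0.42 ± 1.04 without it. The log2 ratio of Slc2a1 to Slc2a6 was higher with oxLDL by 1.86, 2.51 and 1.09 in pairs 1, 2 and 3.

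Pfkfb3 and Pfkfb4 encode enzymes that make and break the fructose bisphosphate that activates phosphofructokinase. Pfkfb3, the isoform with the strongest kinase activity and a known target of HIF-1, measured 43.3, 45.1 and 130.3 CPM with oxLDL, against 81.8, 64.9 and 263 CPM in untreated cells. All 3 oxLDL samples lay below their partners, and the groups overlapped through oxLDL sample 3. Pfkfb3 fell with the block, at -0.82 ± 0.14 on the log2 scale (edgeR adjusted p = 0.0471, and 0.597 without the block), to 0.566 of the untreated level. Unmatched, its value was -0.91 ± 0.705 on all samples, -1.64 without oxLDL sample 3 and -0.00541 without untreated sample 3. In 5 samples its expected count carried a fraction, so part of its reads was divided with other genes. Pfkfb4 measured 30.4, 25.8 and 17.0 CPM with oxLDL and 47.4, 46.8 and 23.2 CPM without. Here sample 3 was the lowest of its group, unlike for Pfkfb3, and the ratio within pairs was still below 0 in all of them. The log2 fold change of Pfkfb4 was -0.65 ± 0.13, short of the threshold (edgeR adjusted p = 0.0565 with the block, DESeq2 adjusted p = 0.018).

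Promoter windows of Slc2a6 and Pfkfb3 are shown because these were the 2 called genes, and HIF-1 binds short cores of the forms ACGTG and GCGTG. The windows run from 250 bases before to 50 bases after each start site of RefSeq (build GRCm38.p6), written 5′ to 3′ on the gene's strand, with a core on either strand in capitals. That of Slc2a6 is chr2:27027949-27028248 on the minus strand, and those of Pfkfb3, which has 2 annotated starts, are chr2:11553880-11554179 and chr2:11502041-11502340 on the minus strand.
Slc2a6: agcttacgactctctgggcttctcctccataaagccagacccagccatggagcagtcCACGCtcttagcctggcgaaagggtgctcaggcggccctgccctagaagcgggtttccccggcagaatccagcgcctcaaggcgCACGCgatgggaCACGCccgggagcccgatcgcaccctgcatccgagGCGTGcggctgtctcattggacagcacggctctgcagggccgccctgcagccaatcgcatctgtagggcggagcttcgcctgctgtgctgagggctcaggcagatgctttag
Pfkfb3, first start: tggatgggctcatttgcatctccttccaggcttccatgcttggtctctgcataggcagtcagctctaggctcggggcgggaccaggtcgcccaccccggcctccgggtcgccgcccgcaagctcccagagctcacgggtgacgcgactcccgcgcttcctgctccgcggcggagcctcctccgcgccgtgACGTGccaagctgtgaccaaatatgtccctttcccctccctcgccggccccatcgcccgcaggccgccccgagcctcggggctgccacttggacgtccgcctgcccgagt
Pfkfb3, second start: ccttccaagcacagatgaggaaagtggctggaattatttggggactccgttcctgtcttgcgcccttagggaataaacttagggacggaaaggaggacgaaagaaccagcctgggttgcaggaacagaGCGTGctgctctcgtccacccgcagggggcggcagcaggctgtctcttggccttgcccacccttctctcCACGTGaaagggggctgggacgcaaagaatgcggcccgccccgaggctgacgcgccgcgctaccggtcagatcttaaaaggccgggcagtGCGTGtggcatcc
The Slc2a6 window held 4 cores, and the Pfkfb3 windows held 1 and 4. In the second Pfkfb3 window a pair of cores on opposite strands overlapped in the E-box CACGTG, which reads the same on both strands and was counted once for each strand. Among 49 windows of the 33 genes, 75.5% held at least 1 core, against 43.8% of all 32851 windows of 300 bases in the table. The windows of these genes were also richer in CpG, with a median of 20 against 7, and 70.5% of the 12454 windows with at least 13 CpG held a core. The E-box was in 10.2% of the windows of these genes and in 7.15% of all windows. Among the windows with at least 13 CpG the E-box share was 11.2%. At least 1 core stood in a window of 29 of the 33 genes, which included genes that measured higher and genes that measured lower with oxLDL. Matches of this kind are a description of the letters and not of binding.

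Hexokinases trap glucose by phosphorylation. Hk1, the housekeeping form, measured 179.6, 188 and 136 CPM with oxLDL, against 129, 108 and 123 CPM without. The groups did not overlap, which was true of 5 of the 33 genes in the higher direction (10.5% of all tested genes) and of 0 in the lower direction (10.6% of all). Its log2 fold change was 0.47 ± 0.16 with the block (edgeR adjusted p = 0.145). Hk2, the form induced by HIF-1, measured 68.8, 84.5 and 237 CPM with oxLDL and 89.9, 76.2 and 162 CPM without, and its pairs differed in direction. Hk3, a form of myeloid cells, measured 336, 471 and 680.1 CPM with oxLDL and 343, 289.7 and 623 CPM without. Their log2 fold changes with the block were 0.10 ± 0.20 for Hk2 and 0.27 ± 0.20 for Hk3, and neither passed. Gpi1, the isomerase that follows, had a log2 fold change of 0.37 ± 0.17 with the block and did not pass. Fractions of reads entered its count in all 6 samples.

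Phosphofructokinase is built from the subunits Pfkl, Pfkm and Pfkp. Pfkp, the platelet form, measured 143, 195 and 151 CPM with oxLDL and 100.1, 95.0 and 135 CPM without. Its groups did not overlap, and the blocked log2 fold change was 0.57 ± 0.195 (edgeR adjusted p = 0.142). The counts of Pfkp held fractions of reads in all 6 samples. Pfkl, the liver form, measured 41.4, 47.4 and 179 CPM with oxLDL against 41.0, 29.6 and 87.8 CPM without. Pair 1 was level for Pfkl and pair 3 differed most (log2 ratio 1.02), whereas pair 3 differed least for Slc2a1 (0.14). Pfkm, the muscle form, lay between 13.4 and 18.6 CPM with oxLDL and between 10.2 and 19.3 CPM without. The log2 fold changes with the block of Pfkl and Pfkm, 0.58 ± 0.22 and 0.16 ± 0.14, did not pass. While Pfkfb3 fell, the log2 ratio of Pfkl to Pfkfb3 was higher with oxLDL by 0.93, 1.2 and 2.04 in pairs 1, 2 and 3.

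The 9 genes from aldolase to pyruvate kinase, which split the hexose and carry it to pyruvate, measured higher with oxLDL in all 3 pairs (26.4% of all tested genes did). With the block, 0 of the 9 passed in edgeR (1.91% of all tested genes were called higher), and 8 had an unadjusted p below 0.05 (13.3% of all in the higher direction). Their log2 fold changes with the block ran from 0.41 to 1.80 with a median of 0.74, and 7 of the 9 were called higher by DESeq2 with the block (6.17% of all tested genes). Summed over the 9, levels were 6189, 7642 and 12481 CPM in oxLDL samples 1, 2 and 3, against 4585, 3802 and 8273 CPM in the untreated samples. These sums are 1.35, 2.01 and 1.51 times the partner's. The untreated sample 3 exceeded the oxLDL samples 1 and 2, so the groups overlapped.

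Aldoa, the aldolase of most cells, measured 1253, 1583 and 2614 CPM with oxLDL and 743, 640.0 and 1554 CPM without. Its log2 fold change was 0.94 ± 0.21 with the block (edgeR adjusted p = 0.0706, DESeq2 adjusted p = 0.000175) and 0.89 ± 0.46 without it (edgeR adjusted p = 0.432). Pgam1, phosphoglycerate mutase, was close to it, with 489, 599 and 981 CPM with oxLDL and 266, 236 and 622 CPM without. The triose isomerase gene Tpi1 had the most even pairs of the group, with log2 ratios of 0.69, 0.80 and 0.61 and a log2 fold change of 0.70 ± 0.14 with the block (edgeR adjusted p = 0.0586). Pgk1, which makes the first ATP of the pathway, measured 469.9, 566 and 1117 CPM with oxLDL and 349, 270.2 and 681 CPM without. Pkm, pyruvate kinase, measured 1764, 2251 and 2900.2 CPM with oxLDL and 1228, 1115 and 2126 CPM without, a blocked log2 fold change of 0.66 ± 0.21 (edgeR adjusted p = 0.128). Its splice forms are not separated in these gene counts. Gapdh, often used as a reference gene, measured 1609, 1869 and 3229.8 CPM with oxLDL and 1550.1, 1148 and 2349 CPM without, and sample 3 was the highest of both groups. Fractions of reads entered the count of Gapdh in all 6 samples. Aldoc, the brain-type aldolase, ran the other way between numbers and was lowest in sample 3 of both groups (13.2 CPM with oxLDL, 8.26 CPM without).

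Eno2, the neuronal form, measured 22.2, 29.1 and 68.7 CPM with oxLDL, against 2.93, 5.90 and 50.7 CPM without. Untreated samples 1 and 2 were far below all the others, and the log2 ratio was 2.86, 2.28 and 0.44 in pairs 1, 2 and 3. Its log2 fold change with the block, 1.80 ± 0.53, was the highest fitted value of the 33 genes and missed the threshold (edgeR adjusted p = 0.109, DESeq2 adjusted p = 0.000928). Unmatched it was 1.01 ± 1.09, with 0.357 when oxLDL sample 3 was dropped and 3.18 when untreated sample 3 was. Eno1, the ubiquitous form, shared reads with its near-identical copy Eno1b and is uncertain alone, since fractions of reads entered all 6 samples. Summed over Eno1 and Eno1b, levels were 485, 615 and 1072 CPM with oxLDL and 340.3, 265 and 666 CPM without, which gives log2 ratios of 0.51, 1.22 and 0.69 in pairs 1, 2 and 3. That sum was formed after the values were seen.

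**Figure D4:**
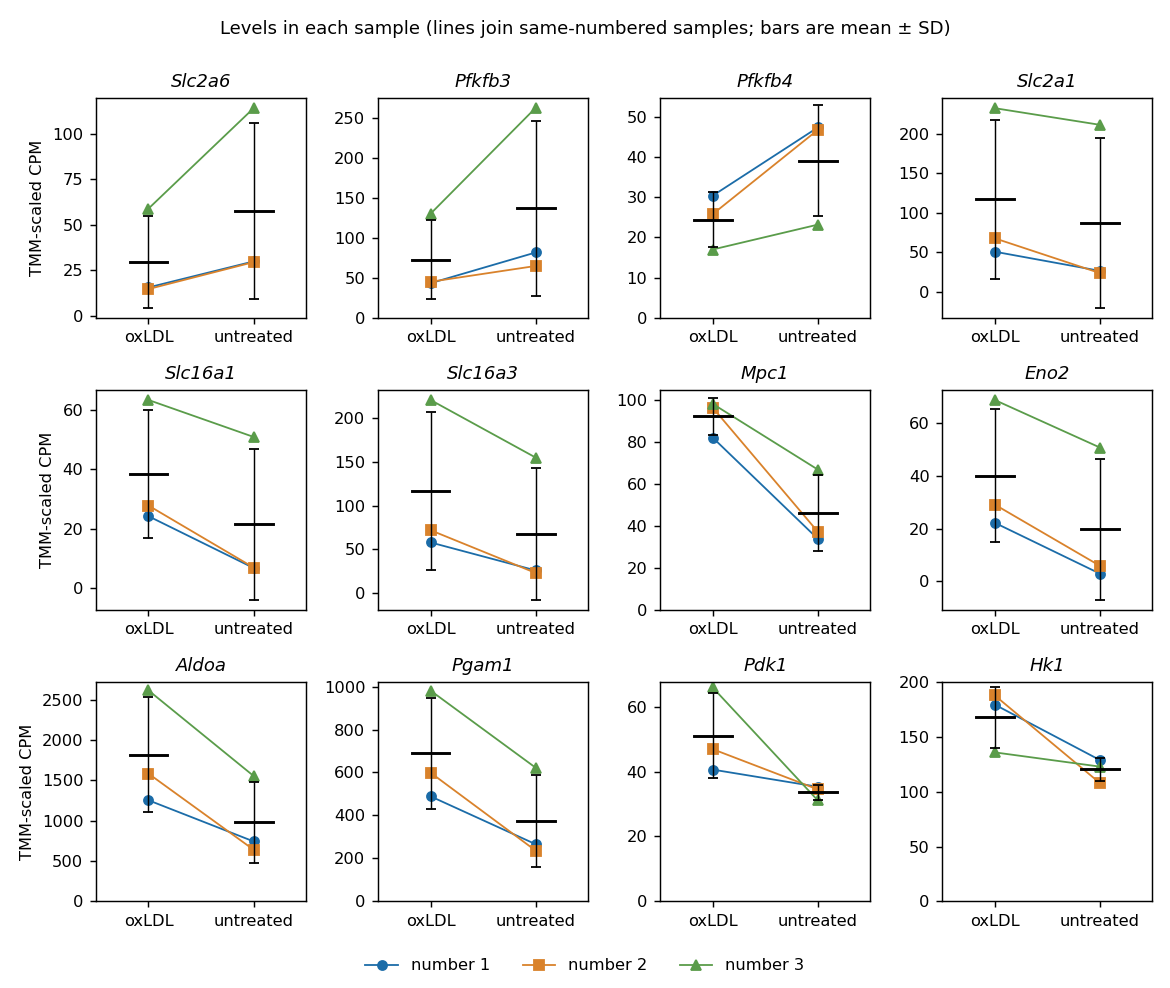
TMM-scaled CPM of 12 of the genes, oxLDL samples on the left and untreated samples on the right of each panel, with lines joining samples of 1 number and black bars for the group mean ± SD (n = 3). For Slc2a6, Pfkfb3 and Pfkfb4 every line climbs towards the untreated side, and for the other 9 genes every line descends towards it. The vertical axis includes 0 and differs between panels.

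Lactate dehydrogenase and the proton-coupled lactate carriers stand at the exit of the pathway. In pairs 1 and 2 the ratios of the carriers exceeded those of the enzyme. Slc16a1, which encodes MCT1, measured 24.2, 27.8 and 63.5 CPM with oxLDL, against 6.69, 6.84 and 51.0 CPM in untreated cells. Slc16a3, which encodes MCT4, the carrier of highly glycolytic cells and a HIF-1 target, measured 57.8, 71.8 and 221 CPM with oxLDL and 25.7, 22.8 and 155 CPM without. In both genes pairs 1 and 2 differed by more than 1 on the log2 scale, pair 3 by less, and the groups overlapped. The log2 fold change with the block was 1.36 ± 0.39 for Slc16a1 (edgeR adjusted p = 0.104) and 1.10 ± 0.24 for Slc16a3 (edgeR adjusted p = 0.0702), and neither passed. Unmatched, these values were 0.84 ± 0.91 and 0.78 ± 0.92. Dropping oxLDL sample 3 from the unmatched fit gave 0.261 for Slc16a1 and -0.0814 for Slc16a3, and dropping untreated sample 3 gave 2.51 and 2.27. Ldha, the subunit that favours lactate formation, measured 402, 437 and 1362 CPM with oxLDL and 377, 324 and 800.5 CPM without. Its log2 ratios were 0.09, 0.43 and 0.77, highest in pair 3, where those of both carriers were lowest. The blocked log2 fold change of Ldha, 0.43 ± 0.19, missed the threshold. Ldhb was at 1.88, 2.34 and 0.362 CPM with oxLDL and at 1.77, 1.58 and 0.478 CPM without, and its lowest sample held 5 reads.

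The mitochondrial pyruvate carrier is made of the subunits Mpc1 and Mpc2. Mpc1 measured 82.2, 96.5 and 98.3 CPM with oxLDL, against 33.8, 37.2 and 66.9 CPM without, or 92.4 ± 8.84 and 46.0 ± 18.2 CPM (mean ± SD, n = 3 each). All oxLDL samples lay above all untreated samples. Its log2 fold change was 1.07 ± 0.20 with the block (edgeR adjusted p = 0.0517) and 1.01 ± 0.29 without it (edgeR adjusted p = 0.202). DESeq2 put its adjusted p at 0.0388 without the block and 0.000396 with it. Mpc2 measured 12.1, 18.6 and 15.7 CPM with oxLDL and 16.7, 16.6 and 14.2 CPM without, a log2 fold change of -0.05 ± 0.18 with the block. The log2 ratio of Mpc1 to Mpc2 was higher with oxLDL by 1.73, 1.21 and 0.41 in pairs 1, 2 and 3. Other such ratios between genes of the list changed in sign between pairs. In pairs 1, 2 and 3 the changes were 0.86, 0.65 and -0.4 for Hk1 to Hk2. They were 0.01, -0.09 and 1.07 for Ldha to Ldhb, and -0.67, -0.36 and 0.2 for Slc16a3 to Slc16a1.

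Pyruvate dehydrogenase kinases switch the complex off. Pdk1, a HIF-1 target, measured 40.6, 46.9 and 65.9 CPM with oxLDL and 35.3, 34.5 and 31.1 CPM without. Pdk3 measured 10.2, 9.48 and 9.99 CPM with oxLDL and 6.89, 7.41 and 7.78 CPM without. In both kinases the groups did not overlap, and the log2 fold changes with the block, 0.58 ± 0.20 for Pdk1 and 0.42 ± 0.15 for Pdk3, did not pass (edgeR adjusted p = 0.144 and 0.157). Pdk2 measured 12.2, 10.2 and 4.92 CPM with oxLDL against 6.48, 8.78 and 3.82 CPM without, higher in each pair, with overlap. Of the subunits of the complex itself, Pdhb and Dlat had log2 fold changes of 0.54 ± 0.18 and 0.36 ± 0.10 with the block and did not pass. Pdha1, the catalytic alpha subunit, had a value of -0.14 ± 0.13, with fractions of reads in all 6 samples. Gpd2, the mitochondrial arm of the shuttle that passes electrons of cytosolic NADH to the respiratory chain, measured 31.8, 36.9 and 92.1 CPM with oxLDL and 44.7, 31.3 and 84.3 CPM without, a log2 fold change of -0.04 ± 0.18.

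Around the pathway, 133 genes of 7 further lists were tested, of which 11 rose and 2 fell in edgeR with the block (1.91% of all tested genes rose and 3.98% fell). Without the block edgeR called 0 of the 133 (0% of all tested genes), and DESeq2 called 8 (7.66% of all). In that edgeR fit 15 had an unadjusted p below 0.05 (6.3% of all tested genes higher and 8.39% lower). Among 21 tested genes of glycolysis and gluconeogenesis outside the 33, Pcx rose, Slc2a9 fell and 19 did not pass. The list's median log2 fold change with the block was 0.22, against 0.50 for the 33 genes and 0.012 for all tested genes. Pcx encodes pyruvate carboxylase, which turns pyruvate into oxaloacetate in mitochondria. It measured 7.00, 7.68 and 13.9 CPM with oxLDL, against 1.71, 2.52 and 3.55 CPM without, and the groups did not overlap. Its log2 fold change was 1.87 ± 0.20 with the block (edgeR adjusted p = 0.0286, and 0.146 without it). Slc2a9, a urate and hexose transporter, measured 21.4, 16.3 and 6.08 CPM with oxLDL and 33.2, 33.8 and 15.4 CPM without.

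Among 20 tested genes of pyruvate and lactate use outside the 33, Acss2 rose and Slc16a6 fell (1.91% and 3.98% of all tested genes did). Acss2 makes acetyl-CoA from acetate in the cytosol and had a log2 fold change of 1.08 ± 0.155 with the block (edgeR adjusted p = 0.0369). Slc16a6, a carrier of the monocarboxylate family, had a value of -0.86 ± 0.13 (edgeR adjusted p = 0.0396), and all 6 samples hold fractions of shared reads for it. The tricarboxylic acid cycle gave 0 calls among 19 tested enzymes with the block, in edgeR (5.89% of all tested genes) and in DESeq2 (16.3% of all). In edgeR 1 had an unadjusted p below 0.05 (13.3% of all tested genes higher and 15.7% lower), and the median log2 fold change was 0.04. Glycogen genes gave 2 rises among 13 tested (1.91% of all tested genes rose). Gbe1, the branching enzyme, measured 84.9, 89.5 and 104 CPM with oxLDL and 16.4, 16.7 and 49.5 CPM without (log2 fold change 1.95 ± 0.32 with the block, edgeR adjusted p = 0.0452). The groups of Gbe1 did not overlap. Fructose and hexosamine genes gave 0 calls among 9 tested in edgeR with the block (5.89% of all tested genes). At an unadjusted p below 0.05 there were 2 (13.3% of all tested genes higher and 15.7% lower), while DESeq2 with the block called 1 lower (10.1% of all).

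Of 26 tested regulators of glycolytic transcription and glucose uptake, 2 rose (1.91% of all tested genes did). Mxi1, an antagonist of MYC that HIF-1 induces, had a log2 fold change of 1.10 ± 0.15 with the block (edgeR adjusted p = 0.035). Arrdc4, an arrestin that lowers glucose uptake, had 0.91 ± 0.10 (edgeR adjusted p = 0.0287), and both had groups that did not overlap. Txnip, the uptake inhibitor named above, is on this list too and was lower with oxLDL in every pair, with overlap. The blocked fit put Txnip at -1.11 ± 0.25, short of the threshold (edgeR adjusted p = 0.0716, and 0.84 without the block). DESeq2 with the block called Txnip lower (DESeq2 adjusted p = 0.000467). By that tool 4 of the 26 were higher (6.17% of all tested genes) and 3 lower (10.1% of all). Hif1a itself measured 142, 137 and 569 CPM with oxLDL and 120.0, 108 and 274 CPM without, short of the threshold (edgeR adjusted p = 0.166). It was named after its values were seen, as the gene of the factor. Among 25 tested genes that HIF-1 induces outside glycolysis, 5 rose, 0 fell and 20 did not pass (1.91% and 3.98% of all tested genes rose and fell), with a median log2 fold change of 0.39. The largest of the 5 were Vegfa (2.92 ± 0.41), Hilpda (1.83 ± 0.20), P4ha2 (1.72 ± 0.26) and the cytokine Mif (1.46 ± 0.205), and the fifth was Rora. In that order the edgeR adjusted p values were 0.0369, 0.0286, 0.0396, 0.0364 and 0.0396 with the block. Without the block they were 0.394, 0.584, 0.25, 0.49 and 0.35. The groups of Hilpda and Mif overlapped. DESeq2 with the block called 10 of the 25 higher (6.17% of all tested genes) and 2 lower (10.1% of all). The 2 were Ndrg1 and Anln (DESeq2 adjusted p = 0.0211 and 0.0223). Ndrg1 was lower with oxLDL in pairs 1 and 2 and not in pair 3 (log2 ratios -2.95, -1.57 and 0.14). P4ha2, a collagen prolyl hydroxylase, measured 14.3, 13.5 and 21.6 CPM with oxLDL and 3.00, 3.67 and 9.97 CPM without. Vegfa, an angiogenic factor, measured 165, 219.6 and 586 CPM with oxLDL and 14.1, 21.2 and 163 CPM without, and its untreated sample 3 stood above untreated samples 1 and 2 as that of Slc2a1 did.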

How the data were processed

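Bulk poly(A) RNA of 6 macrophage samples was analysed, 3 with oxLDL and 3 untreated, grouped by their titles. The authors deposited expected counts per gene and a TMM-scaled CPM signal, per the file names, and the submitters' processing notes list Bowtie2 2.1.0, RSEM 1.2.15 and edgeR. Those notes also list hg19, although the symbols are mouse, so no coordinates come from the files, and the strand setting of counting is not given in the sources used here. Without it, reads of overlapping genes on opposite strands may be mixed. Between 10.4% and 11.1% of the expected counts were not whole (tolerance 0.005), because reads matching several genes were divided, and values were rounded. The deposited signal was whole reads times a constant in 100% of values. Those reads equalled the rounded counts in 100% of values, so their fits repeat the others, with 0 calls without the block and 672 with it. Levels are CPM with TMM factors (0.942 to 1.06) computed here from the 11400 genes passing filterByExpr (minimum count 10, minimum total 15). Levels are not scaled by gene length, so sums over genes and rankings of genes by CPM also depend on length. Fold changes and tests compare samples within a gene.

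The test was edgeR 4.0.16 (R 4.3.3; quasi-likelihood, robust), group as the only term, Benjamini-Hochberg over all tested genes, threshold 0.05. Alternatives were DESeq2 1.42.0, limma-voom 3.58.1, other scaling and filtering, left-out samples, and the number in the titles as a block. Deviations from group means correlated at r = 0.664, 0.447 and 0.698 between same-numbered samples, above the limit of 0.1, so the numbers were taken to pair the samples. Of the unlike-numbered combinations, oxLDL 1 with untreated 2 (0.625) and oxLDL 2 with untreated 1 (0.204) also passed it. log2 ratios of a pair use a prior count of 2, and SE was derived from the F statistic. The fits were tested on simulated data. The 33 genes and the lists were chosen with earlier results of these data known. All called genes are described per sample, as are those whose groups do not overlap or whose log2 fold change reaches 1, and the rate-setting enzymes. Of other lists, the called genes are named, at most 4 in each direction by size, and Rora is named beyond that limit. One called gene of the glycogen list is not reported here. Protein sequences were not used here.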

Additional observations from a re-analysis of the deposited data

How the results depend on the processing

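Depth was similar in all samples, and with 3 samples per group many values depended on single samples, above all those numbered 3. Over 19 alternatives, 595 of 627 fitted values of the 33 genes kept their direction, and 20 genes kept it in all. Of the 19, 17 were planned. The remainder, chosen after seeing the data, refitted the whole reads recovered from the deposited CPM. Those reads equal the rounded counts, so these refits could not differ from the same fits on the counts. With the block, edgeR called 0 members higher, 2 lower and 13 genes of the other lists, and so it did with DESeq2 size factors. The block without the filter gave 1 higher, 2 lower and 14 others. DESeq2 gave 1 higher, 0 lower and 8 others, and with the block 11, 3 and 31. Leaving out samples or pairs gave 0 to 14 higher, 0 to 3 lower and 0 to 45 others, and 8 others and 2 higher without untreated sample 3. In all, edgeR called 0 genes unmatched, 8 without the filter, 672 with the block and 3424 with the block and without pair 3, while limma-voom called 10, DESeq2 873 and DESeq2 with the block 1853. The log2 fold change of Gpd2 was 0.003688 and turned to -0.00604 with DESeq2 size factors, -0.00583 in DESeq2, -0.0419 in limma-voom, -0.0409 with the block on either set of reads, -0.0534 in DESeq2 with the block, -0.0533 with the block and DESeq2 size factors, and -0.0397 with the block and no filter. Leaving out samples or pairs turned the sign of 13 genes, whose log2 fold changes then ran over these ranges: Slc2a1 from -0.566 to 2.21, Slc2a6 from -1.95 to 0.00469, Hk2 from -0.526 to 0.65, Hk3 from -0.0624 to 0.651, Pfkl from -0.262 to 1.34, Pfkm from -0.0832 to 0.337, Tpi1 from -0.0599 to 1.47, Ldha from -0.266 to 1.07, Ldhb from -0.182 to 0.712, Slc16a3 from -0.0814 to 2.27, Pdha1 from -0.238 to 0.0138, Mpc2 from -0.188 to 0.148, Gpd2 from -0.649 to 0.499. Single values within these ranges were -0.12 for Hk2 with the block and no pair 3, -0.0829 for Ldhb and -0.178 for Gpd2 with the block and no pair 2, and -0.132 for Gpd2 with the block and no pair 3. Without untreated sample 2 Pdha1 was at -0.232, and without oxLDL sample 1 Mpc2 was at 0.116. The cause was not tested.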
